A study of Mus musculus with 12 samples.

Results

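The 47 genes described here belong to the interferon response and to antigen presentation by MHC class I, the system that displays peptides from inside a cell on its surface. They were taken by symbol from a table of read counts covering 55487 mouse genes, and the list holds class I presentation genes, interferon receptors, signalling genes and interferon-induced genes. All 47 had enough reads to be tested, among 12897 genes that did, and they fall into 9 roles. The cells were im_TEC, a conditionally immortalised mouse line of tubular epithelial cells from the kidney. Every group carried the SV40 large T antigen and had been transduced and selected on puromycin, and every culture had been grown at 33 °C with 10 ng/mL interferon γ before 7 days at 37 °C without it. The growth medium of all groups also held serum, insulin, transferrin, selenite, triiodothyronine, hydrocortisone and 20 ng/mL epidermal growth factor. The 4 groups of 3 libraries were mock transduced cells (mock), mock transduced cells given 10 ng/mL transforming growth factor β (TGFβ) for 48 h, cells given an Nnmt expression construct (titled Nnmt-OE; the genotype field writes Nmt-OE), and Nnmt-OE cells given the same TGFβ. Nnmt encodes nicotinamide N-methyltransferase, and the series asks about its overexpression in tubular cells. All 4 groups therefore share an earlier exposure to interferon γ, and none of the 12 libraries is from cells without it. The labels name 1 cell line and no separate cultures or transductions, and every p-value here therefore speaks only of the spread among these libraries, which may be technical.

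Interferons are secreted proteins that signal through cell surface receptors and JAK kinases to STAT and IRF transcription factors. Type I interferons act through a complex that includes STAT2 and IRF9 and binds the interferon-stimulated response element (ISRE), and interferon γ acts mainly through the gamma-activated site (GAS). Both raise antiviral proteins, and interferon γ in particular raises the immunoproteasome, the peptide transporter, class I molecules and the guanylate-binding and immunity-related GTPases. In tubular epithelium, class I and its loading machinery are known to respond to interferon γ.

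The promoters of the members whose level differed with TGFβ are shown because they carry, or lack, the ISRE letters. RefSeq promoter windows (build GRCm38.p6, 250 bases before to 50 after each annotated start) were found for 41 of the 47 members, in 49 windows; Tap2, Ifi27, Usp18, Iigp1, Parp9 and Parp14 had no entry. Searched on both strands, GAAANNGAAA (the ISRE core) was in 18 of 49 member windows (36.7%) against 3.44% of all 32851 windows of that length. TTCNNNGAA (GAS) was in 13 of 49 (26.5%) against 8.3%. The list was picked for genes of the interferon response, so these shares describe the list and are not a test of it. By gene, 18 of 41 members held the ISRE letters (43.9%), 13 held the GAS letters (31.7%), 5 held both and 15 held neither. A stretch may be counted under both motifs, and in 5 of the 7 windows with more than 1 ISRE match these overlapped one another. The first 250 bases of each window, 5′ to 3′ on the strand of the gene and ending at the base before the start, are given below in lower case with ISRE matches in capitals. They are Isg15 on the minus strand at chr4:156200819-156201068, Ifit3 on the plus strand at chr19:34583279-34583528, Trim12c on the minus strand at chr7:104353350-104353599, and the first of the 2 windows of H2-K1 on the minus strand at chr17:34000334-34000583.
Isg15: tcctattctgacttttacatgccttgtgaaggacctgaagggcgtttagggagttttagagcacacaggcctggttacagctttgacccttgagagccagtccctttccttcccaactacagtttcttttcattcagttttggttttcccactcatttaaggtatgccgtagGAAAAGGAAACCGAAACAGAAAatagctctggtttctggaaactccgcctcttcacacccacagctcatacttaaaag
Ifit3: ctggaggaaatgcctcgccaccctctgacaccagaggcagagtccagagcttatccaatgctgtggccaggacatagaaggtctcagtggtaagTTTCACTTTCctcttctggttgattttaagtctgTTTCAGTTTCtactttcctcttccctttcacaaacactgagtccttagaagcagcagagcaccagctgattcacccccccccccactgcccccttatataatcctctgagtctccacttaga
Trim12c: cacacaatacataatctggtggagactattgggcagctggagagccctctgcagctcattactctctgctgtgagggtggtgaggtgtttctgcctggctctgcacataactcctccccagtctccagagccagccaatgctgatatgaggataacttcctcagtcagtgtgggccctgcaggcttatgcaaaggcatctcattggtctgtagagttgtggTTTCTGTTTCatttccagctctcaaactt
H2-K1: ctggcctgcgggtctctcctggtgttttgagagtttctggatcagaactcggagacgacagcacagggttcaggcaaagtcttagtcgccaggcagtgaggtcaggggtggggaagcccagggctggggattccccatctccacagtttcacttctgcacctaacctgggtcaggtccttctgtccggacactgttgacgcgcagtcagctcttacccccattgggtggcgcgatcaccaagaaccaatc
Isg15 carried 3 overlapping ISRE matches, the first of which began 78 bases before the start. Ifit3 carried 2, beginning 156 and 122 bases before the start, and Trim12c carried 1, beginning 29 bases before it. Neither window of H2-K1 held either motif, which says only that these letters are not in these windows. By role, the ISRE letters were most frequent among the GTPases, where 5 of 5 members with a window held them. Among the antiviral effectors 7 of 11 did. The ISRE letters were in 1 of 3 class I genes (B2m), in 1 of 5 immunoproteasome genes (Psme1), and in 0 of 6 receptors and kinases. The GAS letters were in 5 of 11 antiviral effectors, 2 of 5 GTPases and 2 of 6 receptors and kinases (Ifnar1 and Ifnar2). They were also in 1 of 5 immunoproteasome genes (Psmb8) and in 0 of 3 class I genes. A match is a description of the letters, not a site at which a factor was measured.

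Each library held 4733846 to 7247413 reads assigned to genes. Levels are given as CPM, read counts divided by the scaled library size, for replicates 1 to 3 of a group in that order. The 3′ tag protocol reads about 1 tag per transcript, so a CPM is not raised by transcript length, but it depends on how well the 3′ end of each gene is annotated. The labels do not say whether molecules were marked, so reads cannot be taken as independent molecules. Nnmt itself was at 24.7, 17.8 and 18.3 CPM in mock cells, at 33.3, 29.7 and 27.9 in TGFβ-treated mock cells, at 24.5, 28.5 and 22.9 in Nnmt-OE cells and at 33.9, 22.5 and 26.3 in TGFβ-treated Nnmt-OE cells, and it was not called between Nnmt-OE and mock cells (log2 fold change 0.32, edgeR adjusted p = 0.897, without TGFβ; -0.14, adjusted p = 0.998, with it). Whether the construct carries the end of the transcript that is read is not stated, so this count does not check the label. Of the epithelial and renal markers Pax2, Pax8 and Cdh16 were present at 298, 243 and 105 CPM, while Cdh1 and Epcam had no read in any library. Of 10 proximal tubule markers Aqp1 and Lrp2 were at 854 and 129 CPM and 5, Hnf4a among them, had no read. Of 12 leukocyte markers Csf1r was at 71.7 and Cd68 at 7.64 CPM, Ptprc had 2 reads in all and 6 had none, and the summed level was 55.2 to 96.5 CPM over the 12 libraries. Of 6 endothelial markers 4 had no read, and the other 2 summed to at most 0.44 CPM in any library. The 8 markers of other nephron segments summed to at most 2.33 CPM, and 5 of them had no read. On the first 3 principal components (15, 12.8 and 11.7% of the variance) mock replicate 1, TGFβ-treated mock replicate 3 and TGFβ-treated Nnmt-OE replicate 3 stood apart from the rest. Calls of members that rest on them are also given without them, while counts of signs and of non-overlapping libraries are not.

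Class I molecules had the highest levels of the 47 members, and brakes on interferon signalling were among the lowest. Over the 12 libraries B2m, the light chain of every class I molecule, had the highest mean level of the 47 (1465 CPM). H2-K1 and H2-D1, the classical class I heavy chains, came next at 620.1 and 414 CPM, followed by the kinase Jak1 at 255 and the peptide-loading factor Tapbp at 225. At the other end, Psme2, Irf7, Socs1 and Usp18 were at 6.07, 4.15, 4.11 and 2.59 CPM. The 47 members together summed to 5507, 4826 and 4630.2 CPM in mock cells, to 4339, 4488 and 4455 in TGFβ-treated mock cells, to 4463, 4488 and 4697 in Nnmt-OE cells and to 4572, 4681 and 4629 in TGFβ-treated Nnmt-OE cells. Mock replicate 1 was the highest of these sums, and the other 11 libraries lay between 4339 and 4826 CPM. That library was also the highest of 12 for 13 members and the lowest of 12 for 10. The ligands were not seen: none of 11 interferon genes, including Ifnb1, Ifng and several Ifna genes, had a read in any library, out of 71112817 gene reads, which allows up to 3 reads, or 0.0422 CPM, over the 12 libraries. That limit covers counting error only.

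**Figure D1:**
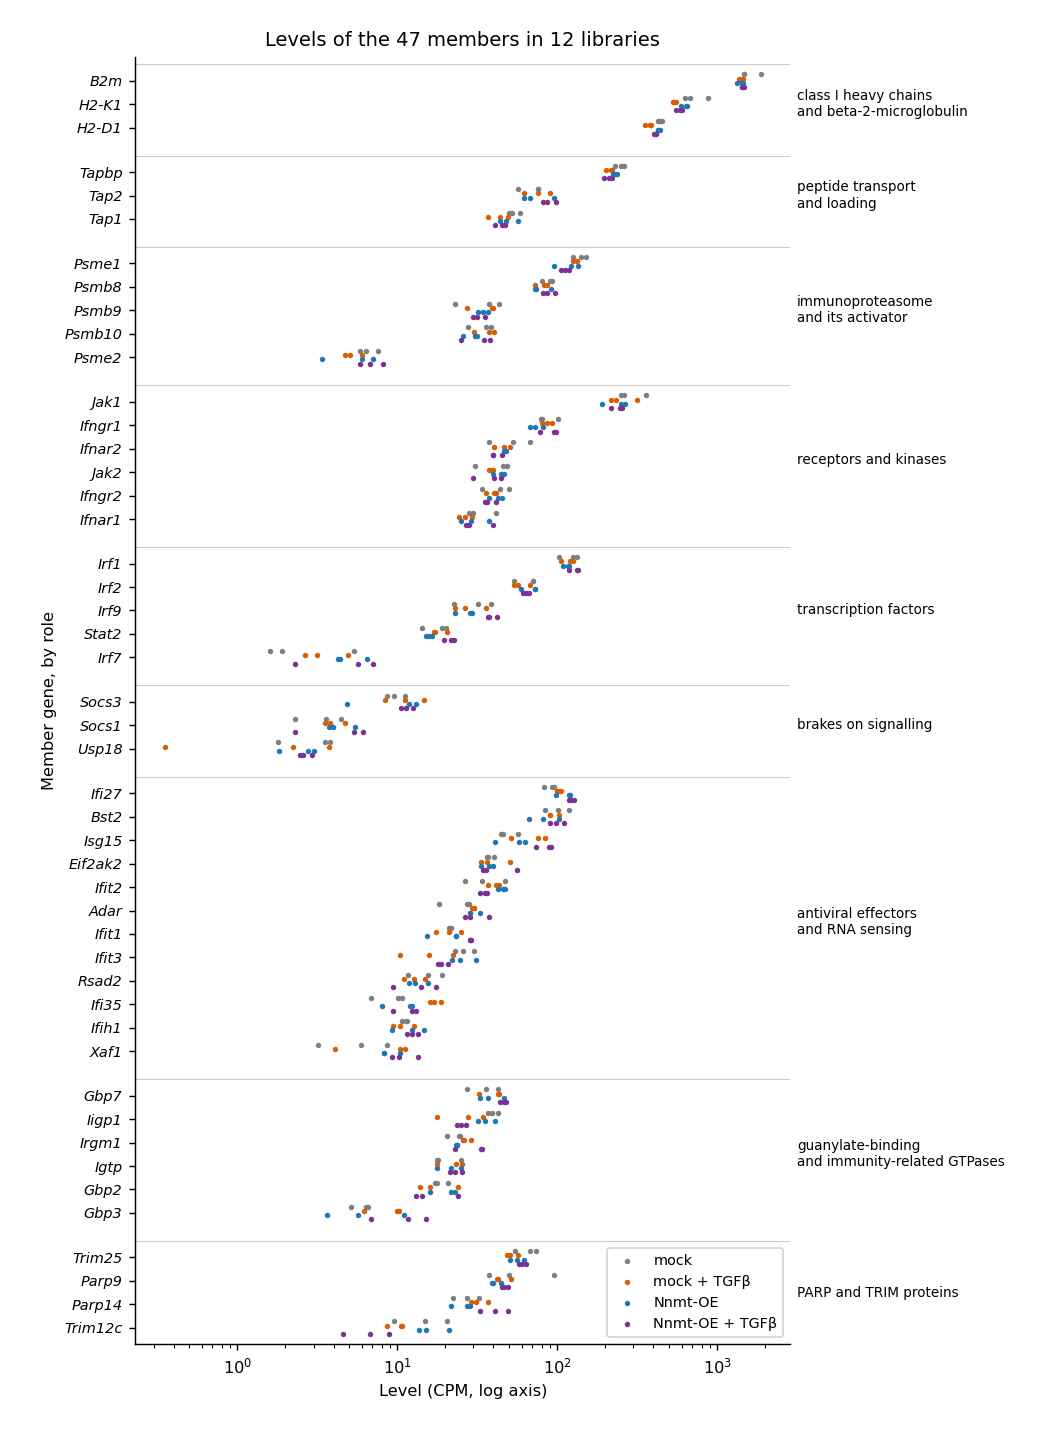
Level of each of the 47 members (CPM, log axis) in each of the 12 libraries, 1 point a library, coloured by group and ordered by role and mean level. B2m, H2-K1 and H2-D1 lie highest in every group, and Usp18, Socs1 and Irf7 lie near the low end.

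TGFβ was compared with no TGFβ within each construct and as the average of both. The members moved in both directions: with the constructs averaged, 6 of 47 passed the test, of which Isg15 and Parp14 were higher and H2-K1, Ifit3, Iigp1 and Trim12c were lower with TGFβ. Their identifiers in the table are ENSMUSG00000035692 (Isg15), ENSMUSG00000034422 (Parp14), ENSMUSG00000061232 (H2-K1), ENSMUSG00000074896 (Ifit3), ENSMUSG00000054072 (Iigp1) and ENSMUSG00000057143 (Trim12c). Over all genes tested the same test called 5.08%, 2.48% higher and 2.6% lower, against 2 and 4 of the 47 members (12.8% together; 1 higher and 4 lower with scaling by library totals). Within mock cells 1 of 47 members was called (H2-K1, lower), against 1.43% of all genes. Within Nnmt-OE cells 2 of 47 were called (Isg15 higher, Trim12c lower), against 1.4% of all genes. The members were chosen with earlier results of these data known. A share above that of all genes, here and below, is therefore not evidence about the members as a set. The median log2 fold change of the 47 was 0.00 for the average, -0.06 in mock and 0.07 in Nnmt-OE. For all genes the medians lay within 0.01 of 0. The 2 TGFβ comparisons use different libraries, while the average is made from both and is not separate evidence. Fewer cells of a kind and less RNA per cell cannot be told apart in these libraries.

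Without a test, the number of members whose 3 treated libraries all lay on one side of the 3 untreated ones was 11 in mock, against 16.4% of all genes (23.4% of the members). Ifi35, Ifi27, Adar and Irgm1 were the 4 higher, and H2-K1, H2-D1, B2m, Tap1, Tapbp, Ifit3 and Iigp1 were the 7 lower. In Nnmt-OE it was 13, against 17.6% of all genes (27.7% of the members). Stat2, Irf9, Isg15, Ifit1, Parp9 and Parp14 were the 6 higher, and H2-D1, Tapbp, Ifnar2, Ifit2, Ifit3, Iigp1 and Trim12c were the 7 lower. H2-D1, Tapbp, Ifit3 and Iigp1 were lower in this way in both. Since the members were chosen with earlier results known, these shares say nothing about the members as a set. Some cell type markers also moved with TGFβ. The summed level of 6 fibroblast markers was 3.38 to 6.54 CPM in mock cells, 7.95 to 13.7 in TGFβ-treated mock cells, 1.61 to 8.04 in Nnmt-OE cells and 10.7 to 16.1 in TGFβ-treated Nnmt-OE cells. Of these Lum had no read, and Pdgfra, Dcn and Pdgfrb had 4, 15 and 25 reads over the 12 libraries. Most of the sum was Col1a1, the most abundant at 6.56 CPM, and Col1a2 at 1.32 CPM. Those 2, the only ones with enough reads to test, were both called higher on average. The sum therefore describes these 2 collagen genes rather than the fibroblast list as a whole. Among the 10 proximal tubule markers, the summed level was 943 to 1188 CPM in mock cells, 719.8 to 799 in TGFβ-treated mock cells, 1251 to 1263 in Nnmt-OE cells and 813 to 863 in TGFβ-treated Nnmt-OE cells. Most of that sum was Aqp1, the 1 of 3 tested that was called (-0.60 ± 0.06 on average, edgeR adjusted p = 8.98e-10), while Lrp2 (-0.21 ± 0.08, adjusted p = 0.102) and Slc5a2 were not called on average. Of the epithelial and renal markers Cdh16 was lower (-0.68 ± 0.13, edgeR adjusted p = 0.00201, in mock; -0.58 ± 0.13, adjusted p = 0.0122, in Nnmt-OE) and Krt8 was higher on average (0.38 ± 0.09, adjusted p = 0.00766). The part of these markers in the members' results was not tested. The leukocyte sum overlapped between treated and untreated libraries in Nnmt-OE (74.3 to 87.1 CPM without and 75.5 to 87.8 with TGFβ) and in mock (55.2 to 81.2 and 76.6 to 96.5).

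**Figure D2:**
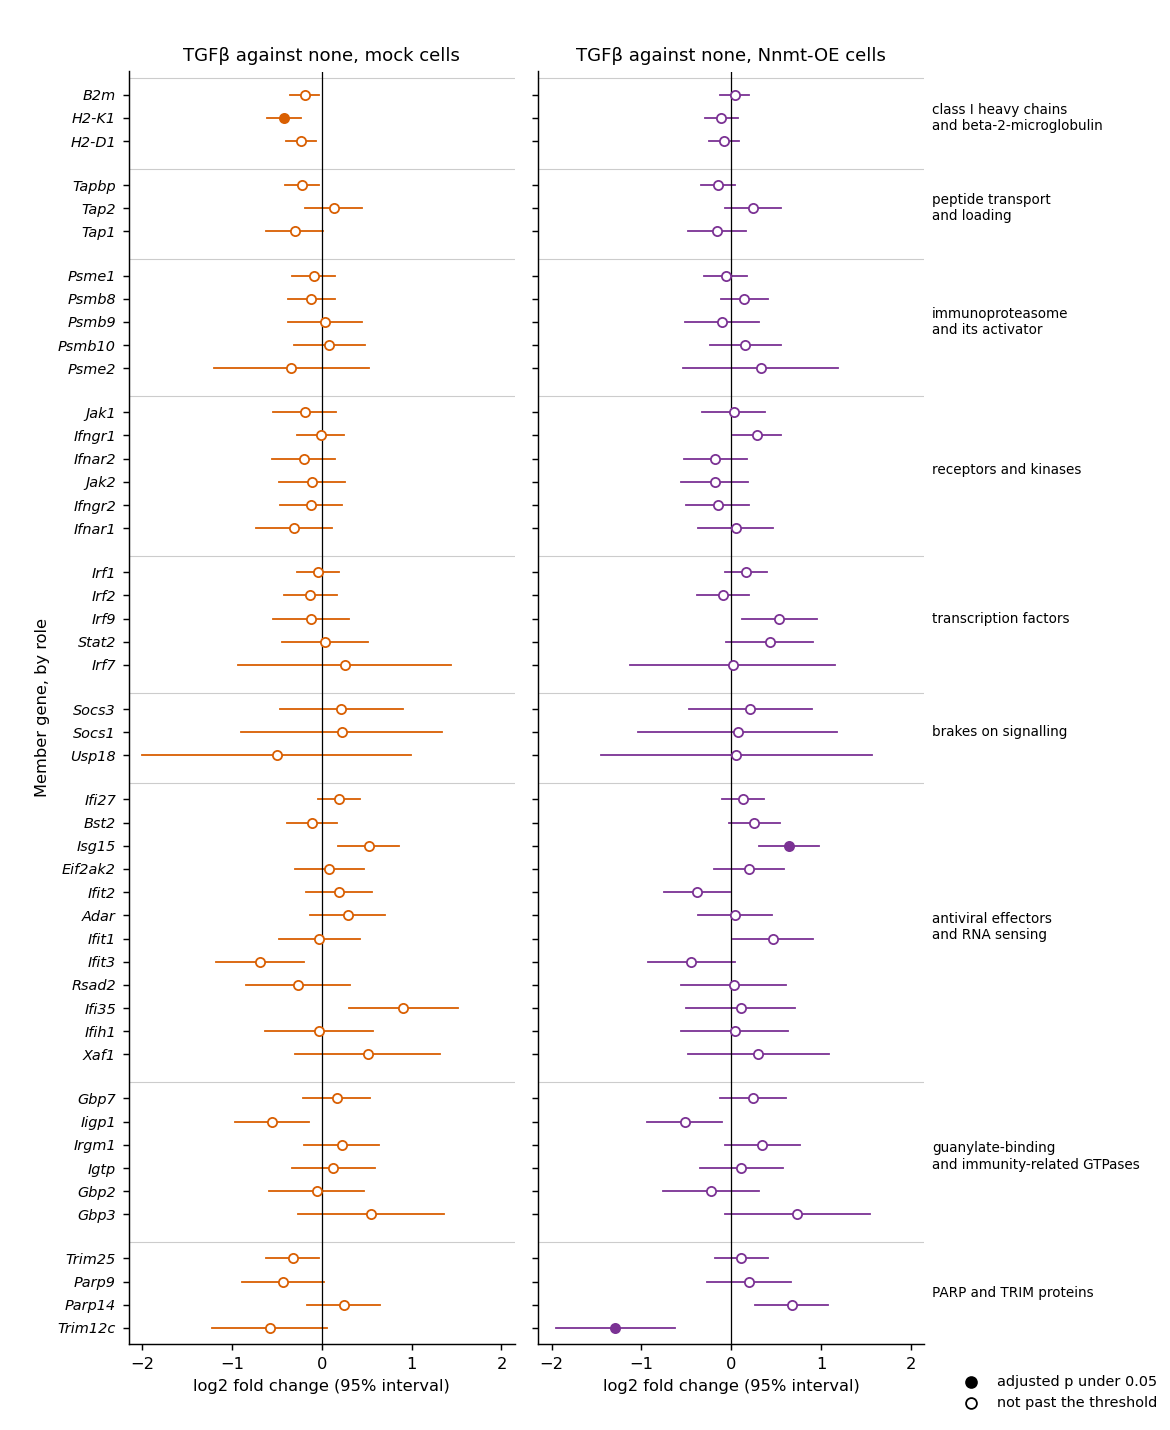
Log2 fold change with TGFβ (x axis, with its 95% interval) of each of the 47 members in mock cells (left) and Nnmt-OE cells (right); filled points have an edgeR adjusted p under 0.05. H2-K1 is filled on the left, Isg15 and Trim12c on the right, and most intervals cross 0.

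Among the class I genes, H2-K1 fell with TGFβ in mock cells and on average. H2-K1 was at 878, 675 and 628 CPM in mock cells, at 534, 540.0 and 555 in TGFβ-treated mock cells, at 596, 637 and 650.4 in Nnmt-OE cells and at 585, 606 and 557 in TGFβ-treated Nnmt-OE cells. In mock cells every treated library lay below every untreated one, and mock replicate 1 stood well above the rest, whereas in Nnmt-OE the treated and untreated libraries overlapped. The log2 fold change was -0.42 ± 0.09 (SE) in mock (edgeR adjusted p = 0.00683), a 1.34-fold decrease, and -0.11 ± 0.09 in Nnmt-OE (adjusted p = 0.743). The mock call rested on mock replicate 1: without it the log2 fold change was -0.26 (adjusted p = 0.0974). Without the 3 libraries that stand apart it was -0.28 (adjusted p = 0.0667), and with only the mock groups fitted it was -0.42 (adjusted p = 0.0819). The average over both constructs, -0.26 ± 0.06 (adjusted p = 0.00801), was called in each of 12 fits that left out a library and in 8 of 8 other alternatives, with a log2 fold change from -0.31 to -0.18. H2-K1 and H2-D1 belong to a family of near-identical genes, so reads may be split between relatives and both counts are uncertain.

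H2-D1 was at 453, 437 and 427 CPM in mock cells, at 353, 379 and 388 in TGFβ-treated mock cells, at 429, 429 and 443 in Nnmt-OE cells and at 415, 411 and 401 in TGFβ-treated Nnmt-OE cells. All 3 treated libraries lay below all 3 untreated ones in both constructs, by little in Nnmt-OE. Its log2 fold change was -0.23 ± 0.08 in mock (edgeR adjusted p = 0.173), -0.08 ± 0.08 in Nnmt-OE (adjusted p = 0.798) and -0.16 ± 0.06 on average (adjusted p = 0.114). None of these was called by edgeR, while DESeq2 gave adjusted p = 0.0409 in mock and 0.034 on average. B2m was at 1871, 1482 and 1465 CPM in mock cells, at 1371, 1456 and 1395 in TGFβ-treated mock cells, at 1340.0, 1442 and 1432 in Nnmt-OE cells and at 1428, 1475 and 1427 in TGFβ-treated Nnmt-OE cells. It was lower in every treated than in every untreated mock library, and the groups overlapped in Nnmt-OE. Neither value passed the test (-0.19 ± 0.08, edgeR adjusted p = 0.304, in mock and 0.04 ± 0.08, adjusted p = 0.92, in Nnmt-OE). The 3 genes together summed to 3202, 2593 and 2520.2 CPM in mock cells, to 2258, 2375 and 2338 in TGFβ-treated mock cells, to 2365, 2507 and 2525 in Nnmt-OE cells and to 2428, 2492 and 2385 in TGFβ-treated Nnmt-OE cells.

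**Figure D3:**
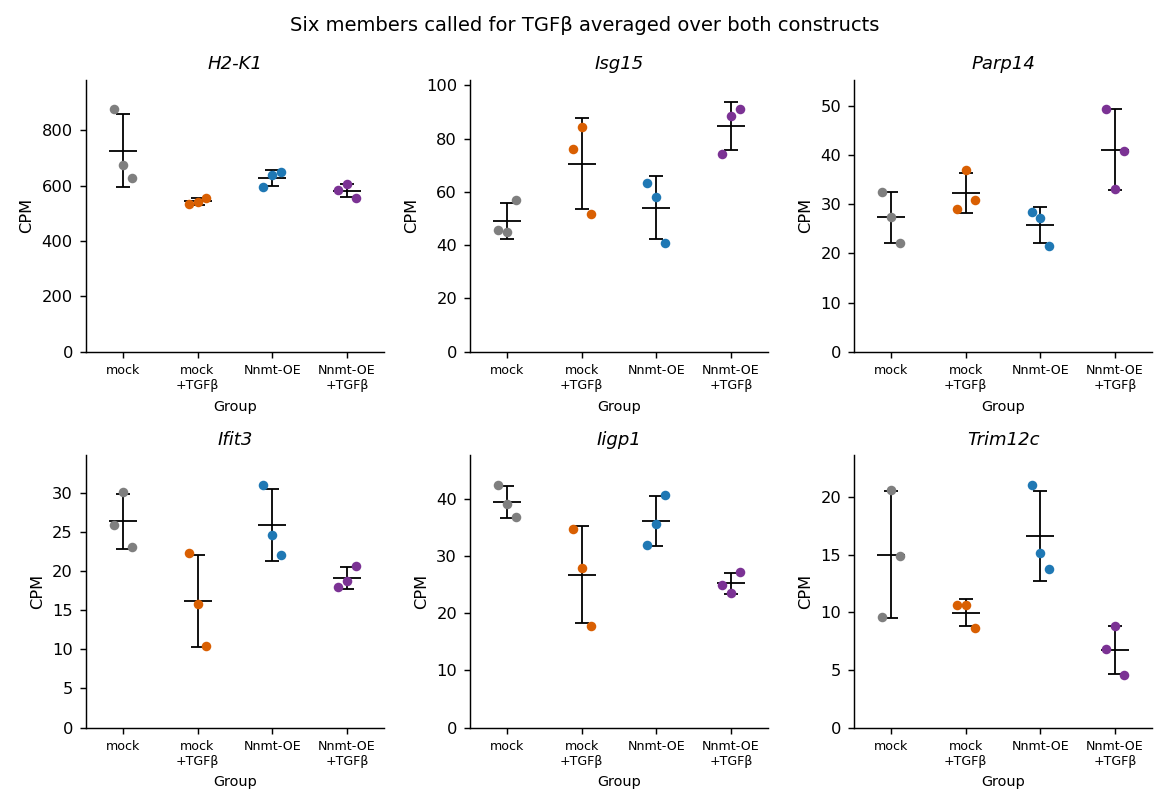
CPM of the 6 members called for TGFβ averaged over both constructs, 1 point a library, with the mean and SD of each group of 3 (axes start at 0). Isg15 and Parp14 are higher with TGFβ, and H2-K1, Ifit3, Iigp1 and Trim12c are lower.

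The genes that move and load peptides were not called by edgeR. Tapbp, which encodes tapasin, the protein that holds empty class I molecules at the peptide transporter, was at 261, 252 and 231 CPM in mock cells, at 202, 216 and 220.4 in TGFβ-treated mock cells, at 237, 224 and 232 in Nnmt-OE cells and at 198, 209.9 and 219 in TGFβ-treated Nnmt-OE cells. The treated libraries were all below the untreated ones in both constructs. This gave a log2 fold change of -0.22 ± 0.09 in mock (edgeR adjusted p = 0.297), -0.15 ± 0.09 in Nnmt-OE (adjusted p = 0.615) and -0.18 ± 0.07 on average (adjusted p = 0.102; 0.0489 by DESeq2). Tap2, one chain of the transporter, was at 57.2, 75.7 and 76.2 CPM in mock cells, at 62.5, 76.3 and 90.9 in TGFβ-treated mock cells, at 67.9, 62.3 and 95.7 in Nnmt-OE cells and at 86.4, 81.7 and 98.6 in TGFβ-treated Nnmt-OE cells. Its groups overlapped, with a positive log2 fold change of 0.19 ± 0.11 on average (edgeR adjusted p = 0.417). Tap1, the other chain, was lower in every treated mock library (37.1 to 49 against 50.3 to 58.6 CPM) and had -0.23 ± 0.11 on average (edgeR adjusted p = 0.298), so the values of the 2 chains lay on opposite sides of 0. Tap1, Tap2, Psmb8 and Psmb9 are neighbours in the genome, and the RefSeq windows of Psmb9 and Tap1, which face away from each other, have 275 of 300 bases in common.

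Of the 5 immunoproteasome members none was called for TGFβ in either construct or on average by edgeR, DESeq2 or limma-voom. In edgeR 0 of 5 had an unadjusted p under 0.05 in mock, in Nnmt-OE or on average. Over all genes those shares were 11.9, 11.1 and 16.6%. Psme1, a chain of the PA28 activator, was at 151, 141 and 126 CPM in mock cells, at 133, 126 and 134 in TGFβ-treated mock cells, at 122, 95.3 and 135 in Nnmt-OE cells and at 119, 112 and 106 in TGFβ-treated Nnmt-OE cells. Its groups overlapped with and without TGFβ. Psmb8, an inducible catalytic subunit, was at 80.1, 90.1 and 92.3 CPM in mock cells, at 83.1, 86.1 and 73 in TGFβ-treated mock cells, at 74, 91.7 and 72.6 in Nnmt-OE cells and at 85.9, 82 and 96.3 in TGFβ-treated Nnmt-OE cells, again with overlapping groups (log2 fold change 0.02 ± 0.09 on average, edgeR adjusted p = 0.964). Psmb9 and Psmb10, the other inducible subunits, lay between 23.1 and 43.5 and between 25.1 and 40.4 CPM, and Psme2 between 3.39 and 8.13 CPM. Inducible subunits take the place of constitutive ones, so each was also set against its counterpart as a share of the pair's reads. Psmb8 made up 72.6 ± 2.37% of Psmb8 and Psmb5 reads in mock cells, 63.4 ± 1.54% in TGFβ-treated mock cells, 68.4 ± 2.35% in Nnmt-OE cells and 69.6 ± 1.67% in TGFβ-treated Nnmt-OE cells (SD, n = 3). The mock share with TGFβ was lower than the mock share without it in every library, and the Nnmt-OE shares overlapped. Over the same groups Psmb5 averaged 32.9, 46.5, 36.4 and 38.7 CPM and Psmb8 87.5, 80.7, 79.4 and 88.1 CPM, so in mock the larger difference between treated and untreated cells was in Psmb5, which edgeR did not call. Psmb9 made up 17.5 to 20.1% of Psmb9 and Psmb6 reads in the group means, and Psmb10 made up 24.8 to 26.4% of Psmb10 and Psmb7 reads. These shares are descriptions with no test, and they hang on how well the 3′ end of each gene is counted.

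**Figure D4:**
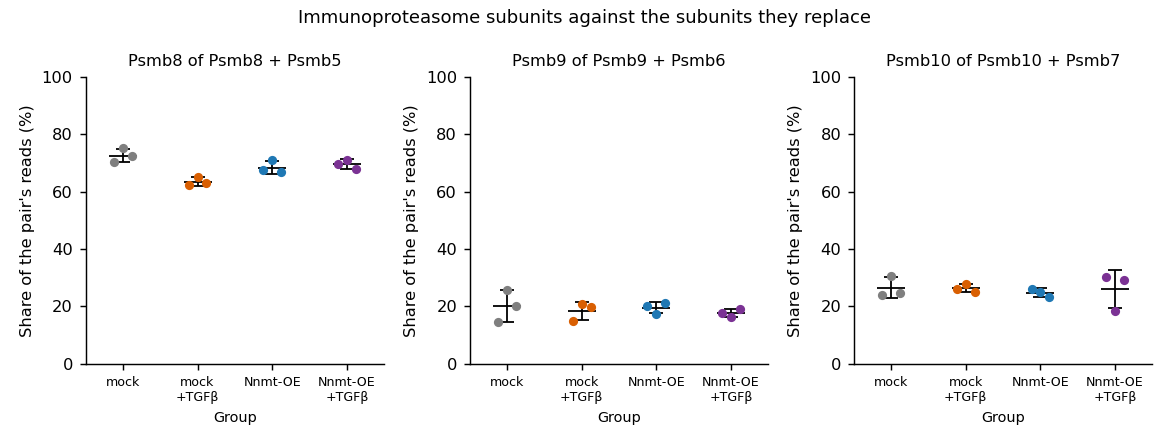
Share of reads (%) of each inducible proteasome subunit in the pair it forms with the constitutive subunit it replaces, 1 point a library, with the mean and SD of each group of 3. The Psmb8 share is lowest in mock with TGFβ (63.4%), and the Psmb9 and Psmb10 groups overlap.

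The receptors and kinases gave no call. None of 6 passed the test in any comparison by edgeR, DESeq2 or limma-voom, and their log2 fold changes on average over the constructs ran from -0.19 to 0.14. Jak1, the kinase common to both interferon receptors, was at 359, 263 and 251 CPM in mock cells, at 216, 233 and 316 in TGFβ-treated mock cells, at 249, 192 and 265 in Nnmt-OE cells and at 218, 247 and 255 in TGFβ-treated Nnmt-OE cells, with mock replicate 1 highest and the groups overlapping. Ifngr1, the chain that binds interferon γ, was at 102, 79.3 and 79.9 CPM in mock cells, at 85.9, 80.6 and 92.5 in TGFβ-treated mock cells, at 67.2, 81.7 and 72.4 in Nnmt-OE cells and at 95.5, 77.7 and 98 in TGFβ-treated Nnmt-OE cells. Its value in Nnmt-OE was 0.29 ± 0.13 (edgeR adjusted p = 0.391), with overlapping libraries, and in mock it was -0.01. Ifnar1 and Ifnar2, the type I receptor chains, averaged 30.5 and 46.7 CPM over the 12 libraries. Ifngr2, the second interferon γ chain, and Jak2, the kinase that works with it, averaged 40.3 and 40.5 CPM. The 95% intervals of the 6 reached at most 0.42 on either side of the log2 fold change within a construct.

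The transcription factors were not called either. Irf1, the activator that interferon γ induces early, was at 103, 125 and 134 CPM in mock cells, at 121, 125 and 105 in TGFβ-treated mock cells, at 109, 116 and 119 in Nnmt-OE cells and at 119, 136 and 133 in TGFβ-treated Nnmt-OE cells, with overlapping groups. Irf2, which binds the same DNA element and can oppose Irf1, was at 70.7, 53.9 and 70.3 CPM in mock cells, at 67.5, 57.2 and 53.7 in TGFβ-treated mock cells, at 72.9, 59.1 and 73.2 in Nnmt-OE cells and at 64.3, 61.3 and 66.7 in TGFβ-treated Nnmt-OE cells, also overlapping. Irf9, the DNA-binding member of the type I interferon complex, was at 38.7, 32 and 22.6 CPM in mock cells, at 36.1, 22.9 and 26.7 in TGFβ-treated mock cells, at 28.4, 23 and 29.3 in Nnmt-OE cells and at 36.9, 42.2 and 37.7 in TGFβ-treated Nnmt-OE cells. With TGFβ the 3 Nnmt-OE libraries were all above the untreated ones, while the mock groups overlapped. For Irf9 the log2 fold change was 0.54 ± 0.21 in Nnmt-OE (edgeR adjusted p = 0.262) and -0.12 ± 0.21 in mock (adjusted p = 0.895). Stat2, the partner of Irf9, was at 15.1 to 16.4 CPM in Nnmt-OE and 19.6 to 22.5 in Nnmt-OE with TGFβ, also without overlap, and at 14.4 to 20.1 and 17.1 to 20.5 CPM in mock without and with TGFβ. Its log2 fold change in Nnmt-OE was 0.43 ± 0.24 (edgeR adjusted p = 0.528). Irf7, which amplifies type I interferon, was low at 1.6 to 7.11 CPM.

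The brakes on signalling were near the bottom of the range. Socs3, which blocks cytokine receptors and their kinases, was at 9.59, 8.7 and 11.1 CPM in mock cells, at 14.7, 8.41 and 11.1 in TGFβ-treated mock cells, at 4.82, 13.1 and 11.9 in Nnmt-OE cells and at 12.6, 11.4 and 10.6 in TGFβ-treated Nnmt-OE cells. Socs1, the main brake on interferon γ signalling, was at 2.31, 4.45 and 3.6 CPM in mock cells, at 3.78, 4.69 and 3.54 in TGFβ-treated mock cells, at 3.75, 3.96 and 5.49 in Nnmt-OE cells and at 6.12, 5.37 and 2.29 in TGFβ-treated Nnmt-OE cells. Usp18, which removes Isg15 from proteins and blocks the type I receptor, lay between 0.354 and 3.82 CPM. The groups of all 3 overlapped. The widest interval, that of Usp18, reached 1.51 on either side of the log2 fold change with TGFβ in Nnmt-OE. Before correction, changes in Usp18 smaller than that could not be told from 0, and a call needs a larger one.

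The antiviral effectors moved in both directions with TGFβ. Isg15, a ubiquitin-like protein that is attached to other proteins, was at 45.8, 44.8 and 56.9 CPM in mock cells, at 76.1, 84.1 and 51.6 in TGFβ-treated mock cells, at 63.2, 58.1 and 40.8 in Nnmt-OE cells and at 74.2, 88.6 and 91.1 in TGFβ-treated Nnmt-OE cells. The treated Nnmt-OE libraries were all above the untreated ones, and in mock 2 of the 3 treated libraries were, while TGFβ-treated mock replicate 3 lay inside the untreated range. The Isg15 log2 fold change was 0.64 ± 0.17 in Nnmt-OE (edgeR adjusted p = 0.0382), a 1.56-fold rise, and 0.52 ± 0.17 in mock (adjusted p = 0.124). On average Isg15 rose by 0.58 ± 0.12 (adjusted p = 0.00145), a call that 20 of 20 alternatives kept, with a log2 fold change from 0.50 to 0.67. In mock it was called without TGFβ-treated mock replicate 3 (0.70, adjusted p = 0.0149), without the 3 libraries that stand apart (0.65, adjusted p = 0.0356) and with no filter on low counts (adjusted p = 0.0348). In Nnmt-OE the call was lost without Nnmt-OE replicate 2 (adjusted p = 0.0673) or 3 (0.299), or TGFβ-treated Nnmt-OE replicate 2 (0.174) or 3 (0.187).

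Of the 3 IFIT genes 1, Ifit3, was called. These proteins bind viral RNA, and Ifit2 and Ifit3 are neighbours in the genome. Ifit3 was at 25.9, 30.1 and 23 CPM in mock cells, at 22.3, 15.9 and 10.4 in TGFβ-treated mock cells, at 31.1, 24.6 and 22.1 in Nnmt-OE cells and at 18, 18.7 and 20.6 in TGFβ-treated Nnmt-OE cells. Every treated library lay below every untreated one in both constructs, by less than 1 CPM in mock. As a log2 fold change this was -0.69 ± 0.24 in mock (edgeR adjusted p = 0.174), -0.44 ± 0.24 in Nnmt-OE (adjusted p = 0.517) and -0.57 ± 0.17 on average (adjusted p = 0.0415). This average call stood in 3 of 12 fits that left out a library; it was lost without mock replicate 1 or 2, TGFβ-treated mock replicate 2 or 3, Nnmt-OE replicate 1 or 2, or any 1 of the 3 TGFβ-treated Nnmt-OE libraries, with adjusted p from 0.0527 to 0.144, and without the 3 libraries that stand apart (adjusted p = 0.113). A near-identical copy, Ifit3b, may share its reads. Ifit1 was at 21.8, 21.2 and 21.7 CPM in mock cells, at 25.1, 17.5 and 21 in TGFβ-treated mock cells, at 23.4, 15.4 and 23.2 in Nnmt-OE cells and at 28.4, 28.4 and 28.8 in TGFβ-treated Nnmt-OE cells, with the 3 treated Nnmt-OE libraries above the rest. Its log2 fold change was 0.47 ± 0.22 in Nnmt-OE (edgeR adjusted p = 0.417) and -0.03 ± 0.22 in mock. Ifit2 was at 26.5, 46.9 and 33.7 CPM in mock cells, at 41.2, 43.3 and 36.8 in TGFβ-treated mock cells, at 47.5, 43 and 46.1 in Nnmt-OE cells and at 36.5, 32.9 and 35.4 in TGFβ-treated Nnmt-OE cells. It was lower in every treated Nnmt-OE library (-0.38 ± 0.18, edgeR adjusted p = 0.426) and overlapped in mock (0.19 ± 0.18). Neither Ifit1 nor Ifit2 was called.

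Ifi35, an interferon-induced protein that acts in innate signalling, had the highest log2 fold change of the 47 in mock, but it did not pass the test. Ifi35 was at 10.7, 10.2 and 6.86 CPM in mock cells, at 18.8, 16.1 and 17 in TGFβ-treated mock cells, at 8.04, 12.3 and 12.1 in Nnmt-OE cells and at 12.4, 13.2 and 9.38 in TGFβ-treated Nnmt-OE cells. All treated mock libraries were above all untreated ones, and the Nnmt-OE groups overlapped. Its log2 fold change was 0.91 ± 0.30 in mock (edgeR adjusted p = 0.138; 95% interval 0.30 to 1.51), while Nnmt-OE had 0.11 ± 0.30 (adjusted p = 0.947). Ifi27, an interferon-induced gene, was at 82.8, 95.4 and 93.1 CPM in mock cells, at 106, 104 and 99.5 in TGFβ-treated mock cells, at 98.3, 118 and 119.6 in Nnmt-OE cells and at 128, 122 and 119 in TGFβ-treated Nnmt-OE cells. With TGFβ it lay higher in every mock library and overlapped in Nnmt-OE (0.16 ± 0.08 on average, edgeR adjusted p = 0.315). Bst2, or tetherin, which holds budding viruses at the cell surface, was at 118, 102 and 83.5 CPM in mock cells, at 89.7, 89.8 and 102 in TGFβ-treated mock cells, at 82, 66.6 and 102 in Nnmt-OE cells and at 90.2, 98.8 and 111 in TGFβ-treated Nnmt-OE cells, with overlapping groups. The other 5 members of this role were not called in either construct: Eif2ak2 (the kinase PKR), Adar (which edits adenosines in double-stranded RNA), Ifih1 (the RNA sensor MDA5), Rsad2 (viperin) and Xaf1. Their mean levels over the 12 libraries ran from 8.61 CPM for Xaf1 to 39.3 for Eif2ak2, and their log2 fold changes on average from -0.12 for Rsad2 to 0.41 for Xaf1. Adar lay higher in every treated mock library, at 29.2 to 30.3 against 18.3 to 28 CPM. Of the 12 members of this role 9 (75%) had a positive average log2 fold change, against 49.2% of all genes. Of the same 12, 1 was called higher and 1 lower (16.7% together), against 2.48 and 2.6% of all genes. No test was made of the role as a whole.

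Among the GTPases, some of which attack the membranes of vacuoles that hold microbes, Iigp1 fell with TGFβ on average. Iigp1 was at 42.5, 39 and 36.8 CPM in mock cells, at 34.6, 27.9 and 17.7 in TGFβ-treated mock cells, at 32, 35.6 and 40.6 in Nnmt-OE cells and at 25, 23.5 and 27.1 in TGFβ-treated Nnmt-OE cells. The treated libraries were below the untreated ones in both constructs, and TGFβ-treated mock replicate 3 was the lowest of 12. On the log2 scale the difference was -0.55 ± 0.20 in mock (edgeR adjusted p = 0.203), -0.52 ± 0.21 in Nnmt-OE (adjusted p = 0.277) and -0.54 ± 0.14 on average (adjusted p = 0.0189), a 1.45-fold decrease. The average call was lost without TGFβ-treated mock replicate 3 (-0.43, adjusted p = 0.0622), Nnmt-OE replicate 3 (adjusted p = 0.0721) or TGFβ-treated Nnmt-OE replicate 2 (adjusted p = 0.0545), and without the 3 libraries that stand apart (-0.42, adjusted p = 0.0848). Gbp7, the most abundant of the role, was at 27.2, 36.1 and 42.5 CPM in mock cells, at 43.2, 42.6 and 32.7 in TGFβ-treated mock cells, at 33.1, 46.6 and 37.1 in Nnmt-OE cells and at 47.6, 46.6 and 44.2 in TGFβ-treated Nnmt-OE cells, with overlapping groups. Gbp3, its neighbour in the genome, was at 5.15, 6.36 and 6.54 CPM in mock cells, at 9.95, 10.2 and 6.19 in TGFβ-treated mock cells, at 11.1, 3.67 and 5.67 in Nnmt-OE cells and at 15, 11.8 and 6.88 in TGFβ-treated Nnmt-OE cells, with wide spread within groups (0.64 ± 0.28 on average, edgeR adjusted p = 0.224). Irgm1, Igtp and Gbp2 had average log2 fold changes of 0.29, 0.12 and -0.14, none called. Iigp1 thus had the opposite sign to 4 of the other 5 GTPases on average, where 49.2% of all genes had a positive value.

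Of the PARP and TRIM proteins Trim12c fell and Parp14 rose with TGFβ on average. Trim12c, a mouse relative of the antiviral TRIM5, was at 9.59, 20.6 and 14.9 CPM in mock cells, at 10.6, 10.6 and 8.66 in TGFβ-treated mock cells, at 21.1, 15.1 and 13.7 in Nnmt-OE cells and at 6.78, 8.83 and 4.59 in TGFβ-treated Nnmt-OE cells. The treated Nnmt-OE libraries were all below the untreated ones, and mock replicate 1 lay among the treated mock libraries. The Trim12c log2 fold change was -1.29 ± 0.33 in Nnmt-OE (edgeR adjusted p = 0.0302), a 2.45-fold decrease and the largest of the 47 in either construct. It was -0.58 ± 0.32 in mock (adjusted p = 0.495) and -0.94 ± 0.23 on average (adjusted p = 0.00801). The average call was lost by a narrow margin without mock replicate 2 (-0.79, adjusted p = 0.0501). The Nnmt-OE call was lost without Nnmt-OE replicate 1 (adjusted p = 0.209) or 2 (0.0568), TGFβ-treated Nnmt-OE replicate 1 (0.104) or 3 (0.202), without the 3 libraries that stand apart (0.065) and with limma-voom (0.0625). Close relatives such as Trim12a may share its reads, and at a mean of 12.1 CPM its counts were among the lower ones. Parp14, which adds single ADP-ribose units to proteins, was at 32.5, 27.4 and 22.2 CPM in mock cells, at 29.1, 37 and 30.9 in TGFβ-treated mock cells, at 28.4, 27.3 and 21.6 in Nnmt-OE cells and at 49.4, 33.1 and 40.9 in TGFβ-treated Nnmt-OE cells. All treated Nnmt-OE libraries were above the untreated ones, and the mock groups overlapped. The Parp14 log2 fold change was 0.67 ± 0.20 in Nnmt-OE (edgeR adjusted p = 0.0844), 0.24 ± 0.20 in mock (adjusted p = 0.71) and 0.46 ± 0.14 on average (adjusted p = 0.0498). This was the weakest of the calls: it stood in 2 of 12 fits that left out a library, those without mock replicate 1 or TGFβ-treated Nnmt-OE replicate 2, and the other 10 gave adjusted p from 0.0522 to 0.184, as against 0.0544 with scaling by library totals. In Nnmt-OE alone Parp14 was called without mock replicate 1 (0.68, adjusted p = 0.0482), by DESeq2 (adjusted p = 0.0477) and with only the Nnmt-OE groups fitted (adjusted p = 0.0404). Parp9, whose product works with a ubiquitin ligase, was at 95.9, 50.3 and 37.7 CPM in mock cells, at 42.6, 42.3 and 51.3 in TGFβ-treated mock cells, at 39.1, 39.8 and 44.4 in Nnmt-OE cells and at 45.3, 49.2 and 46.7 in TGFβ-treated Nnmt-OE cells. Apart from mock replicate 1, its libraries lay between 37.7 and 51.3 CPM. Trim25, a ubiquitin ligase that acts on the RNA sensor RIG-I, was at 73.7, 67.4 and 54.6 CPM in mock cells, at 50.6, 56.8 and 48.8 in TGFβ-treated mock cells, at 62.2, 50.6 and 55.8 in Nnmt-OE cells and at 63.8, 57.6 and 60.5 in TGFβ-treated Nnmt-OE cells, with -0.32 ± 0.15 in mock (edgeR adjusted p = 0.36) and 0.11 ± 0.15 in Nnmt-OE (adjusted p = 0.859).

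The label Nnmt-OE was compared with mock without and with TGFβ and as the average of both, and no member was called by edgeR, DESeq2 or limma-voom in any of the 3. Over all genes edgeR called 0.0388% without TGFβ, 0.0233% with it and 0.0698% on average. At an unadjusted p under 0.05 there were 5 of 47 members without TGFβ (5.84% of all genes), 2 with it (4.46%) and 2 on average (6.23%). Without TGFβ these were H2-K1 (-0.21 ± 0.09), B2m (-0.19 ± 0.08), Psme1 (-0.25 ± 0.12), Parp9 (-0.58 ± 0.22) and Ifi27 (0.31 ± 0.12), each with an edgeR adjusted p of 0.813 to 0.836. All but Ifi27 were lower in Nnmt-OE, and for H2-K1, B2m, Psme1 and Parp9 the highest library of 12 was mock replicate 1. Without that library 0 of 47 members had an unadjusted p under 0.05 in this comparison. With TGFβ they were Irf9 (0.45 ± 0.21) and Ifi27 (0.25 ± 0.11), both with adjusted p = 0.998.

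Ifi27 was higher in every Nnmt-OE than in every mock library, both without and with TGFβ. Its log2 fold change was 0.28 ± 0.08 on average (95% interval 0.12 to 0.45), with an edgeR adjusted p of 0.395, so it failed the correction. The other member on average was Psme1 at -0.23 ± 0.08 (edgeR adjusted p = 0.667). Members whose Nnmt-OE and mock libraries did not overlap numbered 3 without TGFβ (Ifi27 and Adar higher, B2m lower), against 10.9% of all genes and 6.38% of the members. With TGFβ there were 10, against 10.2% of all genes and 21.3% of the members. In that comparison H2-K1, H2-D1, Irf9, Ifit1, Ifi27, Gbp7 and Trim25 were higher in Nnmt-OE, and Psme1, Ifit2 and Ifi35 were lower. The median 95% interval of a member's log2 fold change reached 0.41 on either side without TGFβ and 0.40 with it. Before correction over all genes, a difference smaller than that could not be told from 0 for a typical member. A call after correction needs a larger one.

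The difference between the TGFβ effects in the 2 constructs was tested as an interaction. No member was called by edgeR, DESeq2 or limma-voom, and edgeR called 0% of all genes. At an unadjusted p under 0.05 there were 5 of 47 members, against 3.88% of all genes. They were H2-K1 (0.31 ± 0.13), B2m (0.23 ± 0.11), Irf9 (0.65 ± 0.29), Trim25 (0.43 ± 0.21) and Ifit2 (-0.57 ± 0.26), where a positive value means that TGFβ moved the gene further up, or less far down, in Nnmt-OE. Each had an edgeR adjusted p of 0.999. Without mock replicate 1 there was 1 such member, and without the 3 libraries that stand apart there were 0. So the call of H2-K1 in mock alone, and those of Isg15 and Trim12c in Nnmt-OE alone, are not shown to differ between the constructs. Isg15 and Trim12c had interaction values of 0.12 ± 0.24 and -0.71 ± 0.45. Of the 47 members 33 (70.2%) had a positive interaction value, against 49.2% of all genes. The TGFβ effect was negative for 28 members in mock and 15 in Nnmt-OE. It was thus positive for 40.4 and 68.1% of the members, against 49.7% of all genes in each construct. The members were measured in the same 12 libraries, so their signs are not independent, and these counts were not tested. They include mock replicate 1 and were not repeated without the 3 libraries that stand apart.

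**Figure D5:**
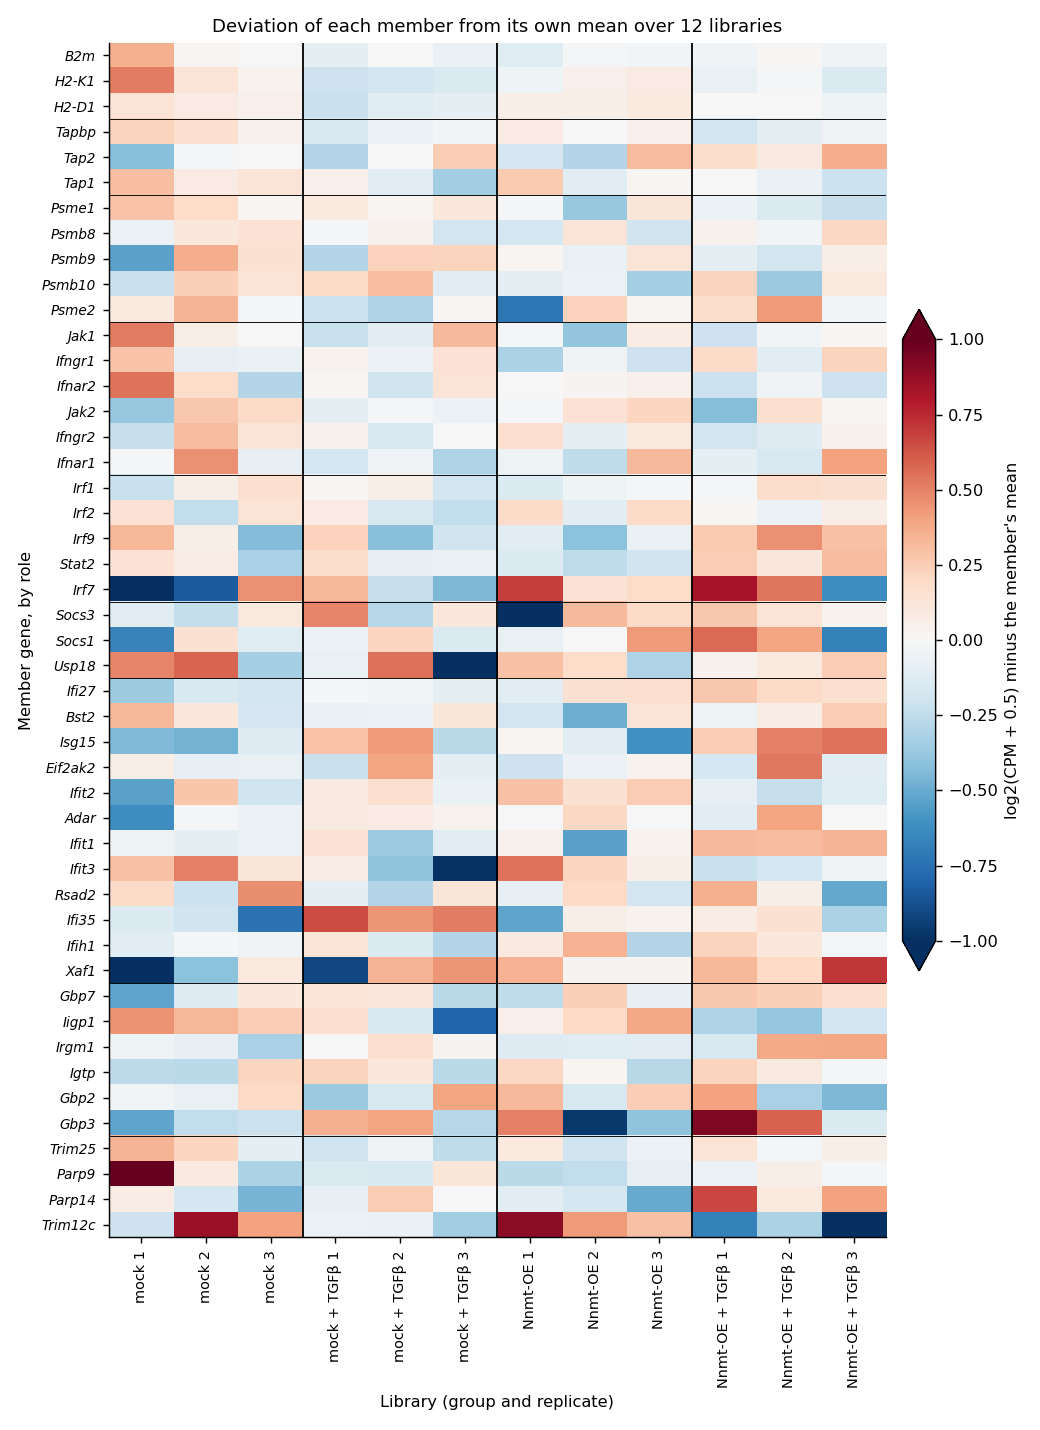
Deviation of each member (rows, by role) from its own mean over 12 libraries, in log2(CPM + 0.5), for each library (columns, by group and replicate); red is higher and blue lower, and colours end at 1 and -1. Mock replicate 1 differs from the other mock libraries in many rows, and Isg15 and Ifi35 show treated libraries mostly above untreated ones in mock.

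Other genes of the same pathways, 195 symbols in 7 lists, gave few calls. Of these 193 were in the table and 135 had enough reads to be tested. TGFβ gave 1 call in mock (0.741%), 1 in Nnmt-OE (0.741%) and 5 on average, 4 higher and 1 lower (3.7%), while edgeR gave 0 for the construct without TGFβ, with it and on average and for the interaction (5, 11, 10 and 4 at an unadjusted p under 0.05). Over all genes the TGFβ shares were 1.43, 1.4 and 5.08%. At an unadjusted p under 0.05 the construct comparisons and the interaction held 3.7, 8.15, 7.41 and 2.96% of the 135. The all-gene shares were 5.84, 4.46, 6.23 and 3.88%. Samhd1, which breaks down the nucleotides that viruses need, was at 129, 104 and 100.3 CPM in mock cells, at 158, 156 and 154 in TGFβ-treated mock cells, at 122, 117 and 107 in Nnmt-OE cells and at 148, 142 and 167 in TGFβ-treated Nnmt-OE cells. It was higher in every treated library of both constructs (0.49 ± 0.11, edgeR adjusted p = 0.0127, in mock; 0.40 ± 0.11, adjusted p = 0.0605, in Nnmt-OE; 0.44 ± 0.08, adjusted p = 0.000228, on average). Rtp4, an interferon-induced gene, was at 21, 22.1 and 28.3 CPM in mock cells, at 29.3, 28.3 and 30.2 in TGFβ-treated mock cells, at 25.4, 25.8 and 18.7 in Nnmt-OE cells and at 30.1, 45 and 45.9 in TGFβ-treated Nnmt-OE cells. It also lay higher in every treated library, though only just in mock, with 0.79 ± 0.21 in Nnmt-OE (edgeR adjusted p = 0.0402) and 0.54 ± 0.15 on average (adjusted p = 0.0198).

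Cxcl10, a chemokine that draws T cells, was at 31.8, 31.6 and 31.2 CPM in mock cells, at 47.9, 55.9 and 35.7 in TGFβ-treated mock cells, at 36.3, 46.9 and 37.3 in Nnmt-OE cells and at 60.5, 54 and 47.3 in TGFβ-treated Nnmt-OE cells. Every treated library exceeded every untreated one within its construct, and the average rise was 0.49 ± 0.12 (edgeR adjusted p = 0.0103). Lap3, an aminopeptidase, rose by 0.33 ± 0.09 on average (edgeR adjusted p = 0.0263), from 60, 56.6 and 62.1 to 88.1, 80.4 and 75.1 CPM in mock and from 61.8, 68.8 and 58.5 to 71.2, 77.2 and 71.3 in Nnmt-OE. H2-Eb1, a class II chain, was at 44.2, 54.1 and 48.9 CPM in mock cells, at 40.2, 41.7 and 34.8 in TGFβ-treated mock cells, at 49.3, 40.6 and 64.7 in Nnmt-OE cells and at 42.6, 30.5 and 29.4 in TGFβ-treated Nnmt-OE cells. It fell on average, with a log2 fold change of -0.46 ± 0.13 (edgeR adjusted p = 0.0237). Of the other class II genes H2-DMb1, Cd74, H2-Ab1 and H2-DMa averaged 25, 17.4, 7.38 and 2.45 CPM. Of the 7 listed 5 were tested. Counting H2-Eb1, TGFβ gave 0 of 5 at an unadjusted p under 0.05 in mock, 3 in Nnmt-OE and 2 on average. Over all genes those shares were 11.9, 11.1 and 16.6%. With treatments averaged, all 5 were lower in Nnmt-OE than in mock, while 49.6% of all genes had a positive value. None of the 5 was called for the construct, and 3 had an unadjusted p under 0.05 (6.23% of all genes). Among the other class I and loading genes 0 of 11 tested was called for TGFβ on average, with 1 at an unadjusted p under 0.05, and the most abundant were Calr and Pdia3 (0.12 and 0.07 on average). None of 10 constitutive proteasome genes was called, with 2 at an unadjusted p under 0.05; the most abundant were Psma7 (0.07) and Psmb4 (0.09). None of 27 other receptor, kinase, factor and brake genes was called, with 5 at an unadjusted p under 0.05, and the most abundant were Irf2bp2 (-0.22) and Ptpn11 (0.24). For these lists the counts are from edgeR alone. Over all genes 16.6% had an unadjusted p under 0.05 for TGFβ on average. The shares were 9.09% of the other class I and loading genes and 20% of the constitutive proteasome genes. For the other receptor, kinase, factor and brake genes the share was 18.5%.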

How the data were processed

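The deposited table holds raw counts of reads per gene for 12 libraries, made from 100 ng of RNA with a 3′ tag kit, per the labels' protocols. Per the submitters' processing notes the authors used STAR and HTSeq, versions not given, and GRCh38 is named although the identifiers are mouse; the strand setting, annotation release and mouse build were not given in the sources used here, so overlapping and antisense genes cannot be told apart. The 5 HTSeq summary rows were left out (no feature 26.4 to 28.8%, ambiguous 0.603 to 0.679% of reads). Symbols came from a reference table of gene names that matched 55141 of 55487 identifiers (99.4%). Promoter windows came from RefSeq.

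Counts were tested in edgeR 4.0.16 (R 4.3.3) with filterByExpr (minimum count 10, minimum total 15), TMM factors from 0.981 to 1.01, a mean for each group, the robust quasi-likelihood F test (common dispersion 0.0331) and Benjamini-Hochberg adjustment over all 12897 genes, at 0.05. All 12 libraries shared 1 fit. CPM use the TMM-scaled library size, and errors of log2 fold changes are model SEs. The fit was also run on counts simulated from its own means and dispersions. This was done for TGFβ in mock, for the construct without TGFβ and for the TGFβ average. Such counts follow the model, so that run cannot show how the fit treats libraries that stand apart.

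The members and lists were chosen with earlier results of these data known. Values in every library are given for members called in any of 7 comparisons, for the 2 with the highest mean CPM in each role and for the 6 others with the smallest unadjusted p; of other lists, the called genes or the 2 most abundant. Tap1 and Stat2 are given more fully than that rule asks, chosen after their values were seen. Read counts of replicates in a group differed by more than independent reads would (chi-square per gene 5.06 to 19.5). Since reads cannot be taken as independent molecules, this value does not separate repeated reads of a molecule from differences between replicates. Same-numbered libraries did not deviate together (r from -0.102 to 0.0352), so numbers were not taken as pairs. Alternatives were RLE scaling, library totals, DESeq2 1.42.0, voom in limma 3.58.1, no filter, another filter (1 CPM in 3 libraries and 50 reads in all, 13513 genes), a replicate block, the compared groups only, each library left out, and the 3 libraries that stand apart left out together.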

Additional observations from a re-analysis of the deposited data

How the results depend on the processing

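The 42 pairs of a member and a comparison with an unadjusted p under 0.05 were recomputed under each alternative; the other pairs were not. Of these values 816 kept their side of the threshold, 39 lost a call, 9 gained one and 0 changed sign, and pairs chosen in this way were unlikely to change sign. For TGFβ in mock, 1 member was called, against 2 with DESeq2, 2 with no filter on low counts, 0 with the compared groups only, and 0 to 2 with 1 library left out (0 without mock replicate 1, 2 without TGFβ-treated mock replicate 3). Without the 3 libraries that stand apart the count was also 1, but it was Isg15 in place of H2-K1. For TGFβ in Nnmt-OE, 2 were called, against 1 with limma-voom, 1 without the 3 libraries that stand apart, and 0 to 3 with 1 library left out. It was 0 without Nnmt-OE replicate 2 or TGFβ-treated Nnmt-OE replicate 3, and 1 without any 1 of Nnmt-OE replicates 1 and 3 and TGFβ-treated Nnmt-OE replicates 1 and 2. For TGFβ on average, 6 were called, against 3 to 5 with 1 library left out (3 without mock replicate 2 or TGFβ-treated mock replicate 3), 8 with DESeq2, 5 with library totals and 4 without the 3 libraries that stand apart. The construct comparisons and the interaction had 0 under each alternative that could be fitted (the compared groups alone give neither the averages nor the interaction). With the replicate block the counts were 1, 2 and 6 for TGFβ in mock, in Nnmt-OE and on average, and it changed no other call. Over all genes edgeR called 184 for TGFβ in mock, against 306 by DESeq2, 92 with the compared groups only and 98 to 188 with 1 library left out. In Nnmt-OE it called 180, against 295 by DESeq2, 351 with the compared groups only and 97 to 305 with 1 library left out. For the construct it called 5 without TGFβ (13 with no filter, 3 to 6 with 1 library left out), 3 with TGFβ (1 to 3 with 1 left out) and 9 on average (26 by DESeq2, 19 with no filter, 5 to 9 with 1 left out). The causes were not tested. Under each scaling tried the all-gene median stayed within 0.03 of 0 on the log2 scale. Depth limits members under about 5 CPM (Irf7, Socs1, Usp18), whose intervals are the widest.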
